A study of Mus musculus with 8 samples.

Results

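The transcripts of Cd74 and of the genes for major histocompatibility complex (MHC) class II presentation were followed in 4T1 cells, a mouse triple negative mammary carcinoma line, with and without added acetate. The set named 8 genes: Cd74, H2-Aa, H2-Ab1, H2-Eb1, H2-DMa, H2-DMb1, Ciita and Ctss. Of these, 4 were among the 20189 genes of the table, namely Cd74, H2-Ab1, H2-DMa and Ciita, and the other 4 were not analysed here. The set was selected with measured differences between acetate and vehicle in these same libraries known, so those differences are given as a description, with no p-value. Intervals beside them cover counting error only, and where 2 fits over all genes are summarised, nothing is read from the place of these genes in them. Cells labelled WT were cultured in DMEM with 10% FBS and received 5 mM acetate, or water as vehicle, for 48 h. Each treatment had 4 mRNA libraries, 8 in all, and libraries with the same number shared an experiment code and were taken as pairs. The study added acetate because cells can turn it into acetyl-CoA, the donor for histone acetylation. One cultured line was sequenced, so fewer cells expressing a gene and less RNA of it per cell cannot be told apart.

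MHC class II molecules are pairs of an alpha and a beta chain that carry peptides from the endosomes to the cell surface, where CD4 T cells read them. The product of Cd74, the invariant chain, escorts the newly made chains to the endosomes and blocks their groove. Proteases then trim it to a short remnant called CLIP, which the H2-DM dimer exchanges for peptide. Transcription of the family is governed by Ciita, a co-activator that binds no DNA itself but docks on a complex held at the X and Y boxes of class II promoters. Dendritic cells, macrophages and B cells express these genes constantly, whereas many epithelial and tumour cells do so mainly after exposure to interferon gamma.

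The promoters of H2-Aa and H2-Eb1, chains of the 2 classical class II dimers, are shown because class II promoters are known for the X and Y boxes on which Ciita acts. Both come from RefSeq on GRCm38.p6 and show the 100 bases before the annotated start, on the coding strand. H2-Aa lies on the minus strand at chr17:34287824-34287923 and H2-Eb1 on the plus strand at chr17:34305767-34305866. Capitals mark GCAAC (core of the X1 box), CGTCA (core of the X2 box) and CCAAT (core of the Y box), each a match of letters and not a shown binding site, searched on both strands, so that ATTGG is CCAAT and TGACG is CGTCA read from the other strand.
H2-Aa: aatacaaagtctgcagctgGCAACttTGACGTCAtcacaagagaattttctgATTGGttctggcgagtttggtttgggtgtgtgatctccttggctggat
H2-Eb1: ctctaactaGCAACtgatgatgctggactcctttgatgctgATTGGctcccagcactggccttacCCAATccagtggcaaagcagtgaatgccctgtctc

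In H2-Aa the letters of the X1 core stood at positions -81 to -77, counted back from the start. Its X2 core was matched on both strands in overlapping positions, from -74 to -70 and from -71 to -67, and its Y core stood at -48 to -44. H2-Eb1 had the X1 core at -91 to -87 and a Y core at -59 to -55, with another CCAAT at -35 to -31, but no CGTCA in the 250 bases searched. H2-Oa, a chain of the H2-DO dimer that restrains H2-DM, had the same order, with GCAAC at -76 to -72 and ATTGG at -43 to -39, although 39 of the 100 bases before its start overlap an annotated exon. H2-DMb1 had 1 match, ATTGG at -61 to -57, and all 100 bases before that start overlap an annotated exon. H2-DMa had 2 annotated starts in the table, without the arrangement of H2-Aa and H2-Eb1: the first had only a match of GCAAC on the other strand at -7 to -3, with 10 of the 100 bases before it in an annotated exon, and the second only ATTGG at -198 to -194. Ctss had none of the 3 motifs. Such short motifs are common: among 32851 promoter windows of 250 bases, 33.8% held CCAAT, 29.9% GCAAC, 17.8% CGTCA, 10.6% CCAAT with GCAAC, and 1.97% all 3. Of the 8 named genes, 5 had an entry in the promoter table, and Cd74, H2-Ab1 and Ciita did not.

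Values below are reads per gene scaled by the authors to a total of 20000000 per library, so 1 unit is about 1 read. Depth ran from 19.9 to 29.3 M reads (M, mega) in the vehicle libraries and from 21.2 to 27.8 M in the acetate libraries. Over all genes, replicate number and not treatment held most of the variance of log2 values, with a median share of 84.8% against 3.48% over 18188 genes with a mean above 1. Epithelial keratins were abundant, and the 9 epithelial markers in the table summed to 61670 to 83364 units in vehicle and 67719 to 85709 in acetate.

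Cd74 was the most abundant of the 4 genes and was higher with acetate in every pair. It lies on chromosome 18 at 60803848 to 60812652, plus strand (ENSMUSG00000024610, GRCm38). The vehicle libraries 1 to 4 held 90.9, 347, 275 and 440 normalised reads of Cd74, and the acetate libraries 239, 645, 562 and 808. The groups overlapped, because acetate library 1 stood below 3 of the vehicle libraries, yet each acetate library was above its own partner. The means of Cd74 were 288 ± 148 in vehicle and 564 ± 239 in acetate (SD, n = 4 each). Within pairs, Cd74 was 2.63, 1.86, 2.04 and 1.84 times its vehicle level, a mean log2 change of 1.05 ± 0.24 (SD, n = 4 pairs). Recovered reads summed to 1464 in vehicle and 2823 in acetate, and the depth-scaled ratio was 1.94, with an exact 95% interval of 1.82 to 2.07 that covers counting error only. Among 13292 genes with a mean of at least 10 units, 0.271% had a log2 change as high as that of Cd74 or higher. The set was selected with this change known, so nothing is read from that share. Without regard to pairs, the mean log2 change of Cd74 was 0.56 when vehicle library 1 was left out and 1.41 when acetate library 1 was left out.

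H2-Ab1, the beta chain of the classical H2-A dimer, had a larger change from a much lower level. It lies on chromosome 17 at 34257689 to 34269419, plus strand (ENSMUSG00000073421). Vehicle libraries 1 to 4 held 6.11, 12.2, 12.1 and 21.8 normalised reads of H2-Ab1 and acetate libraries 17.3, 37.2, 27.4 and 49.6. Again all 4 acetate libraries exceeded their partners, while vehicle library 4 stood above acetate library 1. The means of H2-Ab1 were 13.1 ± 6.51 and 32.8 ± 13.8 (SD, n = 4 each). The folds within pairs were 2.83, 3.04, 2.27 and 2.27, and the mean log2 change was 1.29 ± 0.19 (SD, n = 4 pairs). These values rest on few reads, 8 to 32 per vehicle library and 22 to 69 per acetate library. The summed reads of H2-Ab1 were 67 and 166, a depth-scaled ratio of 2.50 with an exact 95% interval of 1.87 to 3.37. Of the 13292 genes with a mean of at least 10, 0.0752% had a log2 change at or above that of H2-Ab1. Nothing is read from this share either, since the selection used the change.

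H2-DMa, the alpha chain of the peptide-exchange dimer, differed little between treatments. It lies on chromosome 17 at 34119541 to 34139101, plus strand (ENSMUSG00000037649). Vehicle libraries 1 to 4 held 42, 76.5, 71.4 and 114 normalised reads of H2-DMa and acetate libraries 43.9, 90.5, 90.6 and 117. The groups overlapped almost fully, although each acetate library was slightly above its partner. The means of H2-DMa were 76.0 ± 29.6 and 85.5 ± 30.4 (SD, n = 4 each), the folds within pairs were 1.05, 1.18, 1.27 and 1.03, and the mean log2 change was 0.17 ± 0.14 (SD, n = 4 pairs). Its summed reads were 387 and 427, with a depth-scaled ratio of 1.11 and an exact 95% interval of 0.97 to 1.28. Of the 13292 genes with a mean of at least 10, 16.9% had a log2 change at or above that of H2-DMa. Part of the gene lies opposite Brd2, a chromatin reader of acetylated histones that is transcribed from the other strand, and 10.4% of the H2-DMa exon bases overlap Brd2 exons. Brd2 was far more abundant, at 7061 ± 902 in vehicle and 6864 ± 1086 in acetate, and its log2 change was -0.05. Whether the counting used strand is not given in the sources used here, so reads of the 2 genes may be mixed there.

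Ciita, the co-activator of the whole family, was at a low level and differed little between treatments. It lies on chromosome 16 at 10480059 to 10528418, plus strand (ENSMUSG00000022504). Vehicle libraries 1 to 4 held 1.53, 8.14, 6.03 and 15.7 normalised reads of Ciita and acetate libraries 1.57, 8.08, 7.55 and 15.8. In 3 of the 4 pairs the partners were almost equal, and in pair 3 the acetate library was 1.25 times its partner. The means of Ciita were 7.85 ± 5.91 and 8.25 ± 5.84 (SD, n = 4 each), and the mean log2 change was 0.08 ± 0.14 (SD, n = 4 pairs). The recovered reads of Ciita were only 2, 10, 6 and 23 in vehicle and 2, 10, 8 and 22 in acetate. The sums of 41 and 42 reads gave a depth-scaled ratio of 1.03 with an exact 95% interval of 0.65 to 1.63, which covers counting error only and not the spread between replicates. Exons of Ciita share 3.45% of their bases with Dexi on the opposite strand, which was at 167 ± 37.2 in vehicle and 170 ± 26.4 in acetate (SD, n = 4 each). Counts per gene do not tell apart the alternative first exons from which Ciita is known to be transcribed.

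**Figure D1:**
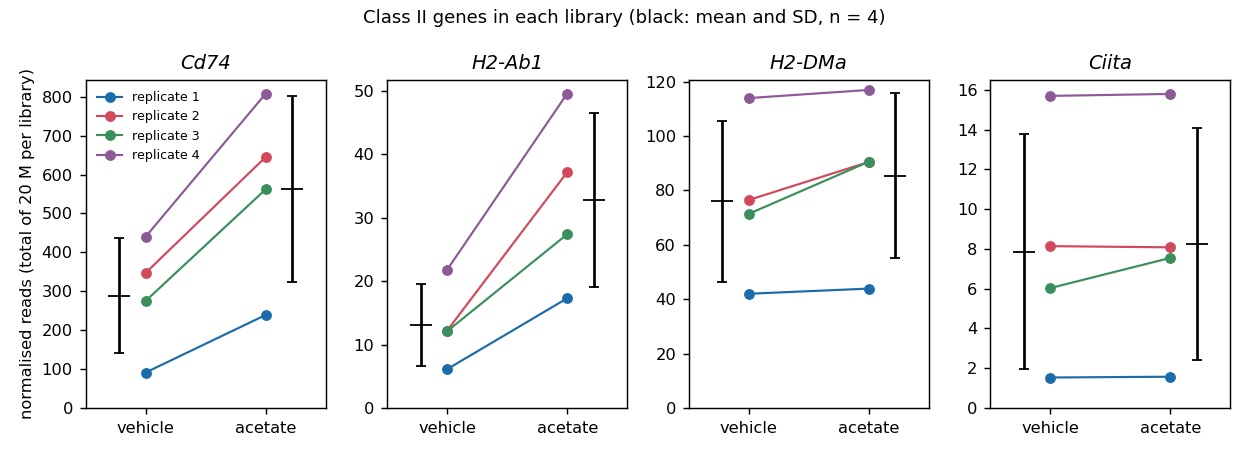
Normalised reads (linear axis from 0, total of 20 M per library) of Cd74, H2-Ab1, H2-DMa and Ciita in each vehicle and acetate library, with lines joining the libraries of a pair and black bars for the mean and SD of 4 libraries. Lines for Cd74 and H2-Ab1 climb in all 4 pairs. Those for H2-DMa rise less (1.03 to 1.27 times), and those for Ciita are nearly flat except in pair 3 (1.25 times). Replicate 1 is lowest and replicate 4 highest in every panel.

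The changes were unequal within the family. The log2 change of Cd74 exceeded that of Ciita by 1.36, 0.90, 0.74 and 0.86 in pairs 1 to 4, a mean of 0.97 ± 0.27 (SD, n = 4 pairs). The log2 change of H2-Ab1 exceeded that of Ciita by 1.21 ± 0.30 and that of H2-DMa by 1.12 ± 0.24, and that of Cd74 exceeded that of H2-DMa by 0.87 ± 0.31, each in all 4 pairs. Cd74 and H2-Ab1 themselves differed in log2 change by -0.24 ± 0.29, a mean within 1 SD of 0. These differences include those by which the set was selected and carry no test.

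**Figure D2:**
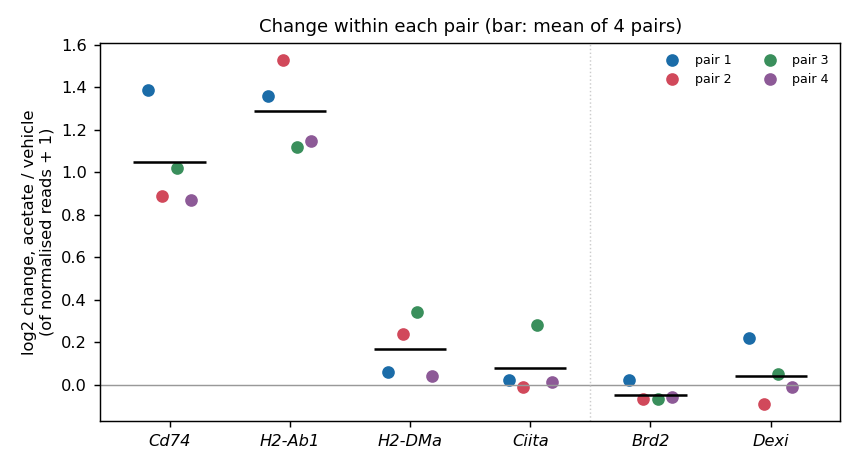
Log2 change (acetate over vehicle, of normalised reads plus 1) in each of the 4 pairs for the class II genes and for Brd2 and Dexi, which overlap H2-DMa and Ciita on the other strand. Bars are means of 4 pairs. Every pair of Cd74 and H2-Ab1 lies at 0.87 or above, and every pair of the other 4 genes at 0.34 or below.

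A limma fit without pairs called no gene of the table (0%) at an adjusted p under 0.05, with 353 genes at an unadjusted p under 0.05, and none of the 4 class II genes was past the threshold. DESeq2 called 7 genes in that design and edgeR 0. With the replicate number as a block, limma called 1744 genes (8.64%), of which 1209 were higher with acetate (5.99%) and 535 lower (2.65%). In the blocked fit 2 of the 4 class II genes were past the threshold, Cd74 and H2-Ab1, both higher. The set was selected on this contrast, so nothing is read from that count. All but Ciita were higher in every pair, as were 16.7% of all genes. None of the 4 had groups that did not overlap with acetate higher, which held for 0.996% of all genes. The gene lists below were also chosen with earlier results of these data known. Their counts and p-values are therefore given as a description.

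**Figure D3:**
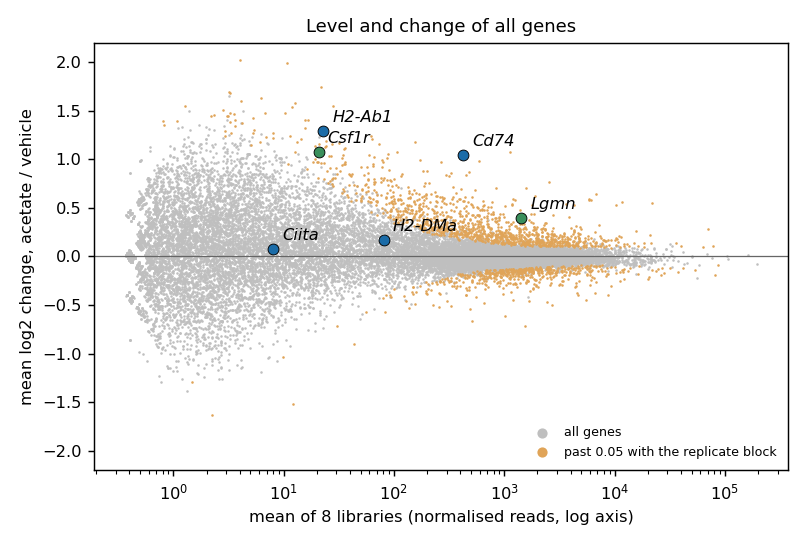
Mean of the 8 libraries (normalised reads, log axis) against the mean log2 change for all genes of the table above 0. Orange points pass 0.05 in limma with the replicate block, blue points are the class II genes, and green points are Lgmn and Csf1r. Cd74 and H2-Ab1 lie at the upper edge for their level (1.05 and 1.29), and H2-DMa and Ciita lie inside the main cloud (0.17 and 0.08).

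Per kilobase of exon, the level of Cd74 in vehicle was 172 ± 88.1 normalised reads, of H2-DMa 22 ± 8.57, of H2-Ab1 5.08 ± 2.53 and of Ciita 0.823 ± 0.62 (SD, n = 4 each). In acetate, the levels per kilobase were 336 ± 142, 24.8 ± 8.83, 12.8 ± 5.38 and 0.865 ± 0.613. The order of the levels per kilobase was the same in all 8 libraries. Ranges of neighbours in that order did not overlap in vehicle, whereas in acetate H2-DMa (12.7 to 34) and H2-Ab1 (6.72 to 19.3) overlapped. The invariant chain transcript was far above that of the classical beta chain that its product escorts: the ratio of their values, not scaled by length, was 14.9 to 28.4 in vehicle and 13.9 to 20.5 in acetate. The ratio of Cd74 to Ciita ran from 28 to 59.5 in vehicle and from 51.1 to 153 in acetate, and it was higher in acetate in each pair. Both upper ends came from pair 1, where Ciita had 2 reads in each library. Without pair 1, the highest ratios were 45.7 in vehicle and 79.9 in acetate.

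The selection did not use differences between replicates, and these were large. The test of them given here takes its error from the spread of the changes within pairs, which is not independent of the selection. Its p-values for the 4 genes are therefore a description. All 4 genes were lowest in replicate 1 and highest in replicate 4 in both groups, an order shown by 18% of all genes. Of the lists below, 9 of 19 endosomal and lysosomal proteases and regulators and 3 of 6 costimulatory and checkpoint ligands had it. So did 1 of 10 genes of the interferon gamma pathway and 0 of 10 of the promoter complex. The highest vehicle library exceeded the lowest by 4.85-fold for Cd74, 3.58-fold for H2-Ab1, 2.71-fold for H2-DMa and 10.3-fold for Ciita. Among acetate libraries the same ratios were 3.37, 2.87, 2.67 and 10.1. In a moderated F test of replicate number (limma, blocked fit, Benjamini-Hochberg over all genes), the adjusted p was 8.49e-08 for Cd74, 0.00331 for H2-Ab1, 5.69e-05 for H2-DMa and 5.76e-04 for Ciita. All 4 passed, against 58.2% of all genes, 18 of the 19 proteases and regulators and 7 of the 10 promoter complex genes. Without replicate 1 the adjusted p was 1.45e-04 for Cd74, 0.0893 for H2-Ab1, 0.0281 for H2-DMa and 0.0855 for Ciita, and without replicate 4 it was 0.0662 for H2-Ab1. Replicate number took 67.3% of the variance of Cd74, 43.0% of that of H2-Ab1, 95.9% of that of H2-DMa and 99.5% of that of Ciita. Treatment took 31.5%, 56.1%, 2.7% and 0.152%, respectively. Ciita, which hardly differed between treatments, thus had the highest share for replicate number. Its 10.3-fold and 10.1-fold ranges rest on replicate 1, where each library held 2 reads of Ciita.

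Of 6 further class II and H2-DM or H2-DO chains, 1 was in the table. H2-Oa was at 0, 1.63, 2.01 and 2.05 in vehicle and 0, 2.42, 3.77 and 7.19 in acetate, a few reads at most. Its log2 change was 0.62 (adjusted p = 0.369, limma with the block).

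The genes listed for the class II promoter complex include acetyltransferases such as Ep300 beside the proteins on which Ciita docks. None of these genes passed the threshold in either direction, where 8.64% of all genes did. All 10 listed genes were in the table, and their median log2 change was -0.01, against 0.02 over all genes. Those with the highest means were Creb1, which binds the X2 box, Ep300, a histone acetyltransferase, and Nfya, a subunit of the Y box factor. Creb1 was at 2691 ± 193 in vehicle and 2676 ± 162 in acetate, Nfya at 1606 ± 107 and 1595 ± 95.9 (SD, n = 4 each). The log2 change of Ep300 was -0.10 (adjusted p = 0.118, limma with the block).

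In the interferon gamma pathway to Ciita, 1 of 10 genes rose and none fell, a share near that of all genes (5.99% higher), with a median log2 change of 0.09 against 0.02 over all genes. It was Jak2, a kinase bound to the interferon gamma receptor, at 1377, 4249, 3265 and 6201 in vehicle and 1448, 5353, 3946 and 8210 in acetate. Jak2 was higher in all 4 pairs and in the same replicate order as the class II genes (log2 change 0.27, adjusted p = 0.00401, limma with the block), though not past the threshold without pair 3 or pair 4 (adjusted p = 0.0706 and 0.0672). Irf1, an interferon-induced transcription factor that acts on the Ciita promoter, had a log2 change of 0.10 (adjusted p = 0.154, limma with the block). Ifng itself was not analysed here.

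Among proteases of the endosome and lysosome and their regulators, which process the invariant chain and antigens, 5 of 19 rose and none fell, beside 5.99% of all genes higher, with a median log2 change of 0.12 against 0.02 over all genes. Lgmn, the asparaginyl endopeptidase, was at 1100, 1179, 1293 and 1355 in vehicle and 1648, 1539, 1651 and 1647 in acetate. Its groups did not overlap, unlike those of the class II genes (log2 change 0.40, adjusted p = 5.36e-04, limma with the block). The others were cathepsins: Ctsh and Ctsc, both aminopeptidases, each had a log2 change of 0.23 (adjusted p = 0.00168 and 0.00993), Ctsz one of 0.22 (adjusted p = 0.00176) and Ctsb one of 0.18 (adjusted p = 0.00180). Ctsc alone of these was not past the threshold without pair 3 or pair 4 (adjusted p = 0.110 and 0.0988). Ctsl, which can stand in for Ctss in invariant chain trimming in some epithelia, was the most abundant, at 23645 ± 1584 in vehicle and 23718 ± 2599 in acetate (SD, n = 4 each).

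Cd74 at the cell surface is also a receptor for the cytokine Mif and signals with Cd44. None of the 6 ligands and partners listed passed the threshold in either direction, where 8.64% of all genes did. Mif was at 7891 ± 275 in vehicle and 7715 ± 691 in acetate, Cd44 at 10009 ± 987 and 9963 ± 651, and Ackr3, a chemokine receptor reported to take part in Mif signalling, at 958 ± 301 and 938 ± 332 (SD, n = 4 each). Of 6 costimulatory and checkpoint ligands in the table, 1 rose, beside 5.99% of all genes higher. Cd276 went from 2076 ± 103 to 2297 ± 110 (log2 change 0.15, adjusted p = 0.00900, limma with the block). It was not past the threshold without pair 2 or pair 3 (adjusted p = 0.0695 and 0.0811), nor in DESeq2 with the block (adjusted p = 0.0574).

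**Figure D4:**
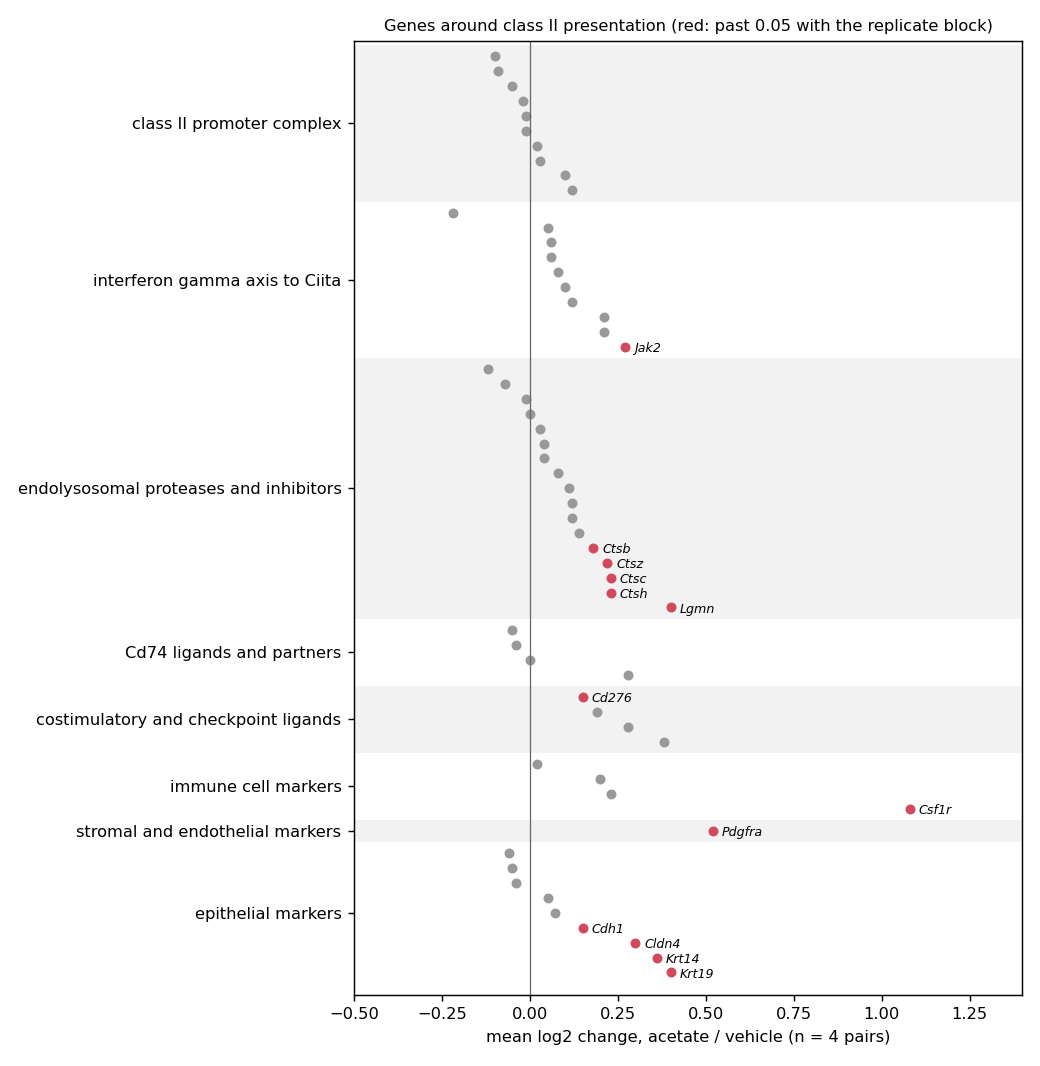
Mean log2 change (4 pairs) of each gene with a mean of at least 10 normalised reads in 8 lists around class II presentation, ordered by change within each list. Red points with names pass 0.05 in limma with the replicate block and all lie to the right of 0. Csf1r at 1.08 is the farthest, and no gene of the promoter complex or of the Cd74 partners is red.

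Markers of other cell types were examined, because antigen-presenting cells are rich in class II transcripts. Of 23 leukocyte markers, 10 were in the table and 6 of these were under 10 units in every library. Itgam, Itgax, Adgre1, Spi1 and Tyrobp, which define myeloid cells, were not analysed here. The pan-leukocyte gene Ptprc was at 0.682 to 3.02 in vehicle and 2.35 to 2.87 in acetate, and the macrophage lysozyme Lyz2 at 0 to 1.36 and 0 to 2.16. The 4 others were Cd68, Cd14, Zbtb46 and Csf1r, and the sum over the 10 ran from 352 to 624 in vehicle and from 373 to 712 in acetate. Csf1r, the receptor for macrophage colony-stimulating factor, was the 1 of 10 that rose, beside 5.99% of all genes higher, from 13.7, 17.9, 11.1 and 9.55 in vehicle to 31.4, 35.5, 21.7 and 25.2 in acetate. Its groups did not overlap (log2 change 1.08, adjusted p = 0.00774, limma with the block, and 0.0671 without pair 4). Cd68 was at 77.1, 121, 122 and 191 in vehicle and 66.7, 150, 124 and 184 in acetate (log2 change 0.02, adjusted p = 0.952). Of the 10 leukocyte markers, 2 had the replicate order of the class II genes in both groups, Cd68 and Lyz2, against 18% of all genes. Over the 8 libraries, the correlation of log2 values with Cd74, given as a description, ran over these 10 markers from -0.05 for Cd79a to 0.91 for Cd14, and was 0.88 for Lyz2, 0.79 for Zbtb46, 0.78 for Cd68, 0.39 for Csf1r and 0.02 for Ptprc. The part of leukocyte transcripts in the class II values was not tested.

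Of 4 stromal and endothelial markers in the table, 1 rose, and of 9 epithelial markers 4 rose and none fell, beside 5.99% of all genes higher. Pdgfra, a growth factor receptor of mesenchymal cells, was at 229, 1213, 1036 and 1496 in vehicle and 388, 1609, 1508 and 1961 in acetate, in the same replicate order as Cd74 (log2 change 0.52, adjusted p = 3.72e-04, limma with the block). The epithelial markers that rose were Krt19 (log2 change 0.40, adjusted p = 2.54e-04), Krt14 (0.36, adjusted p = 0.00405), Cldn4 (0.30, adjusted p = 3.19e-04) and Cdh1 (0.15, adjusted p = 0.00592). Krt14 was not past the threshold without pair 3 (adjusted p = 0.0622), nor Cdh1 without pair 2 or pair 3 (adjusted p = 0.0580 and 0.0689). Of the 9 epithelial markers, 4 had the replicate order of the class II genes in both groups, namely Epcam, Krt18, Krt19 and Cldn4, and 5 did not. Epcam, a general epithelial marker, was at 4319, 6920, 6000 and 9279 in vehicle, whereas Krt14 was lowest in replicate 4, at 1212, 999, 1254 and 672 in vehicle. The correlation of these 9 markers with Cd74 over the 8 libraries ran from -0.36 for Cldn7 to 0.96 for Krt19. The part of these differences between replicates in the class II values was not tested.

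Over the 8 libraries, the Pearson correlation of log2 values with Cd74 was 0.94 for H2-Ab1, 0.88 for H2-DMa and 0.83 for Ciita, given as a description. The libraries share the replicate order, and the median correlation with Cd74 over 10094 genes with a mean above 117 was 0.31. The 10 genes of that group most like Cd74 were Pfkm (0.9926), a phosphofructokinase of glycolysis, Agrn (0.9913), a matrix proteoglycan, Ece1 (0.9905), Nod2 (0.9904), a sensor of bacterial cell wall fragments, Sec14l2 (0.9889), Acsl6 (0.9862), Pcyox1 (0.9860), Pros1 (0.9852), Acads (0.9837) and Vipas39 (0.9829). Each was higher with acetate in all 4 pairs, as were 16.7% of all genes. Cd74 was itself higher in all 4 pairs, so this shared direction follows largely from how the 10 genes were chosen. Their log2 changes ran from 0.16 for Vipas39 to 0.57 for Pros1, all smaller than that of Cd74. With median-of-ratios scaling, 6 of these 10 were again among the 10 most alike.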

How the data were processed

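4T1 mRNA was sequenced from 4 vehicle and 4 acetate libraries (stranded mRNA kit, per the labels). The deposited values are a signal: the authors aligned reads to GRCm38/mm10 with STAR and, per the labels, HTSeq, normalised gene reads to library size and filtered genes by the number of samples expressing them, so every library sums to 20000000 and every gene is above 0 in 4 or more libraries. Values were whole multiples of 1 read (100% within 0.05 reads in each library), which gave back the reads. In vehicle replicate 3, 1 read is worth 1.0053 units, which cannot be told from rounding. Reads were assigned to C57BL/6-based gene models, whereas 4T1 is of BALB/c origin, and class II genes are polymorphic, and the effect of this on their levels was not tested.

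Identifiers were matched to GENCODE M21 (20004 of 20189 had a symbol). limma 3.58.1 (R 4.3.3, trend, two-sided) was fitted to log2(value + 1) of every gene and p-values were adjusted by Benjamini-Hochberg, threshold 0.05, without and with the replicate number as a block. Changes on this scale understate those of low genes. Same-numbered libraries share an experiment code, and their deviations from the group means correlated at 0.78, 0.23, 0.17 and 0.63, so the numbers pair the libraries and the blocked fit is used for statements on other genes. The study's legends give the 4 replicates as independent experiments. In the fit without pairs, p-values set the change against the spread between replicates. In the blocked fit, they set it against the spread of the changes within pairs. The members and the 9 gene lists were chosen with earlier results of these data known. Of each list, genes past the threshold in the blocked fit were named or, where none passed, the 3 with the highest mean. Other list genes were named after their values were seen. One list gene is not reported here, and counts over its list include it. Genes like Cd74 were the 10 with the highest correlation of log2 values among genes above the median mean.

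Alternatives were pseudocounts of 0.1 and 5, a minimum mean of 10, median-of-ratios scaling, edgeR 4.0.16 and DESeq2 1.42.0 on recovered reads, and leaving out each library or pair. Fits were tested on simulated data. No column was left unused.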

Additional observations from a re-analysis of the deposited data

Results flagged for a closer look

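In 10 of 66 groups of 4 libraries, over the 33 genes examined, 1 library stood apart from the other 3 by a gap above Dixon's 95% critical value for the gap's share of the group's range, where chance gives about 3.3. None of the 10 concerned a class II gene, and 7 of them were libraries of replicate 1. In acetate replicate 1, Creb1 was lowest (2434, with the others at 2751 to 2762, gap 0.966 of the range). In vehicle replicate 1, Irf1 was lowest (1004 against 1842 to 1953, gap 0.883) and Ctsz highest (3342 against 2980 to 3034, gap 0.849). Ackr3 was lowest in replicate 1 in both groups, in vehicle at 507 against 1083 to 1138 (gap 0.913) and in acetate at 446 against 1035 to 1150 (gap 0.836). Dexi was likewise lowest in replicate 1 in vehicle, at 112 against 182 to 194 (gap 0.851), and in acetate, at 131 against 180 to 188 (gap 0.870). In replicate 4, Ctsl was highest in vehicle (26003 against 22586 to 23010, gap 0.876) and Nfya lowest in acetate (1453 against 1633 to 1661, gap 0.865). Lgmn was lowest in acetate replicate 2 (1539 against 1647 to 1651, gap 0.965), still above every vehicle library.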

How the results depend on the processing

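Whether pairs enter the fit decided the counts: 0 genes without the replicate block and 1744 with the replicate block, and among the class II genes 0 and 2. The replicate block also moved the lists from 0 to 1 call for the interferon gamma pathway, the costimulatory and checkpoint ligands, the leukocyte markers and the stromal markers, to 5 for the proteases and to 4 for the epithelial markers. DESeq2 called 7 genes without the block and 1126 with it. Leaving out each pair gave 409 to 1662 calls in the blocked fit, with 617 without pair 2 and 539 without pair 4, and fewer libraries entered each of these fits. The test among replicate numbers gave 6199 to 11610 calls, the lowest without replicate 1. The count of class II genes past the threshold of the blocked fit was 2 under each of its alternatives run, from which nothing is read, since the set was selected on this contrast. Median-of-ratios scaling shifted the median log2 change by -0.02 and gave 1821 calls, 1000 higher and 821 lower, where 69.3% of calls were higher before it. It left each list's count as it was. In the fits without pairs, leaving out single libraries gave log2 changes of 0.56 to 1.41 for Cd74, 1.00 to 1.56 for H2-Ab1, -0.08 (without vehicle replicate 1) to 0.46 for H2-DMa, -0.01 without acetate replicate 4, and -0.43 to 0.60 for Ciita. With edgeR on 7 libraries, chosen after seeing the data, Ciita stood at -0.07 and no gene was called. Median-of-ratios scaling kept 6 of the 10 genes most like Cd74. Depth limits Ciita, with 2 to 23 reads per library, and H2-Ab1, with 8 to 69.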
